A study of Mus musculus with 167 samples.

Results

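The miR-34b/c and miR-449 family was examined as 6 mature miRNAs, mmu-miR-34b-5p, mmu-miR-34b-3p, mmu-miR-34c-5p, mmu-miR-34c-3p, mmu-miR-449a-5p and mmu-miR-449c-5p. They were chosen by name, and are 6 of the 1915 mature miRNAs in the read count tables of 5 tissues. The tables hold 167 small RNA libraries from 35 mice that had received whole thorax irradiation or sham irradiation and were alive at the endpoint. C3Hf/Sed/Kam mice (C3H) were all female, 8 sham and 7 irradiated, and were sampled at 4 months. C57Bl/6 mice (C57) were sampled at 6 months, with 8 male and 7 female sham mice and 4 male and 1 female irradiated mice. Lung, heart, brain and red blood cells (RBC) came from all mice, and white blood cells (WBC) from 5 sham and 6 irradiated C3H mice and from 11 sham and 5 irradiated C57 mice. Lung and heart lay in the irradiated field, and the rest of the body was shielded. Strain and month cannot be told apart in this design. The sample titles also carry a letter, A or B, whose meaning is not given in the sources used here.

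A miRNA hairpin yields a 5p and a 3p arm, and an arm that is loaded into Argonaute represses messenger RNAs that pair with its seed, bases 2 to 8. The miR-34b/c and miR-449 families are known for their high expression in multiciliated epithelium, such as that of the airway, the choroid plexus and the oviduct, where they act together in the formation of motile cilia. The related miR-34a, made from its own locus, is a classic transcriptional target of p53 and is expressed far more widely. Whether p53 also acts on the miR-34b/c and miR-449 members was not tested.

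The sequences below show which members share a seed, given in capitals, and how alike the arms are whose reads have to be told apart. RefSeq entries matched 5 of the 6 members, all but mmu-miR-34c-5p, and mmu-miR-34a-5p is added as the relative with the same seed.
mmu-miR-34b-5p: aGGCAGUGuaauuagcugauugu
mmu-miR-449a-5p: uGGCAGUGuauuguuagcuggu
mmu-miR-449c-5p: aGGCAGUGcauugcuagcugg
mmu-miR-34a-5p: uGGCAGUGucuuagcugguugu
mmu-miR-34b-3p: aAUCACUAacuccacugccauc
mmu-miR-34c-3p: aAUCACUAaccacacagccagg
The seed GGCAGUG was held by 4 of the 1679 mature names of the RefSeq table, and these were the first 4 sequences above. Without an entry there, mmu-miR-34c-5p could not be counted, and its absence says nothing about its seed. The 3p arms of miR-34b and miR-34c shared their first 10 bases and differed at 5 of 22 positions, and mmu-miR-449a-5p and mmu-miR-449c-5p differed at 3 of 21 positions. How the counting treated reads that match more than 1 of these names is not given in the sources used here.

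In the RefSeq annotation of GRCm38.p6, the hairpins of miR-34c (chr9:51103034-51103110) and miR-34b (chr9:51103562-51103645) lie 452 bases apart on the minus strand, opposite an intron of Btg4. The hairpins of miR-449c (chr13:113035983-113036091) and miR-449a (chr13:113037534-113037624) lie 1443 bases apart on the plus strand, within an intron of Cdc20b. The members of each cluster are known to be made from a shared primary transcript.

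Library totals ran from 1794995 to 7865102 counts, and values are given as RPM, the count divided by the library total and scaled to 1000000 reads. The summed level of 5 cardiac muscle miRNAs was 50746 to 298888 RPM in heart and at most 8561 RPM in lung. A single heart library, irradiated C3H replicate 3, gave the lowest of these heart values, and the next lowest heart library held 152513 RPM. The same library had the lowest correlation with its group in heart (r = 0.956, where the median heart library reached 0.987), so the members' irradiation changes in C3H heart, and their comparison with C57 heart and with C3H lung, are also given without it. The lowest correlations in lung were those of sham C57 replicates 4 (0.956) and 1 (0.965), and without either no call on a member changed in the irradiation, interaction and sham comparisons of lung, or in the comparisons of C57 lung with heart.

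Lung held the most of 5 of the 6 members in sham mice of both strains. The level of mmu-miR-34c-5p was 3642 ± 551 RPM (SD, n = 8) in C3H lung and 8008 ± 1709 RPM (n = 15) in C57 lung, which made it by far the most abundant member. In brain it was 1174 ± 132 RPM in C3H and 1535 ± 434 RPM in C57, and in heart 75.2 ± 29.0 RPM and 46.0 ± 20.9 RPM. All 35 lung libraries, irradiated ones included, lay above every brain library (lowest lung 2289 RPM, highest brain 2049 RPM), and all 35 brain libraries lay above every heart library (lowest brain 801 RPM, highest heart 627 RPM). WBC and RBC libraries held at most 0.919 and 1.92 RPM.

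**Figure D1:**
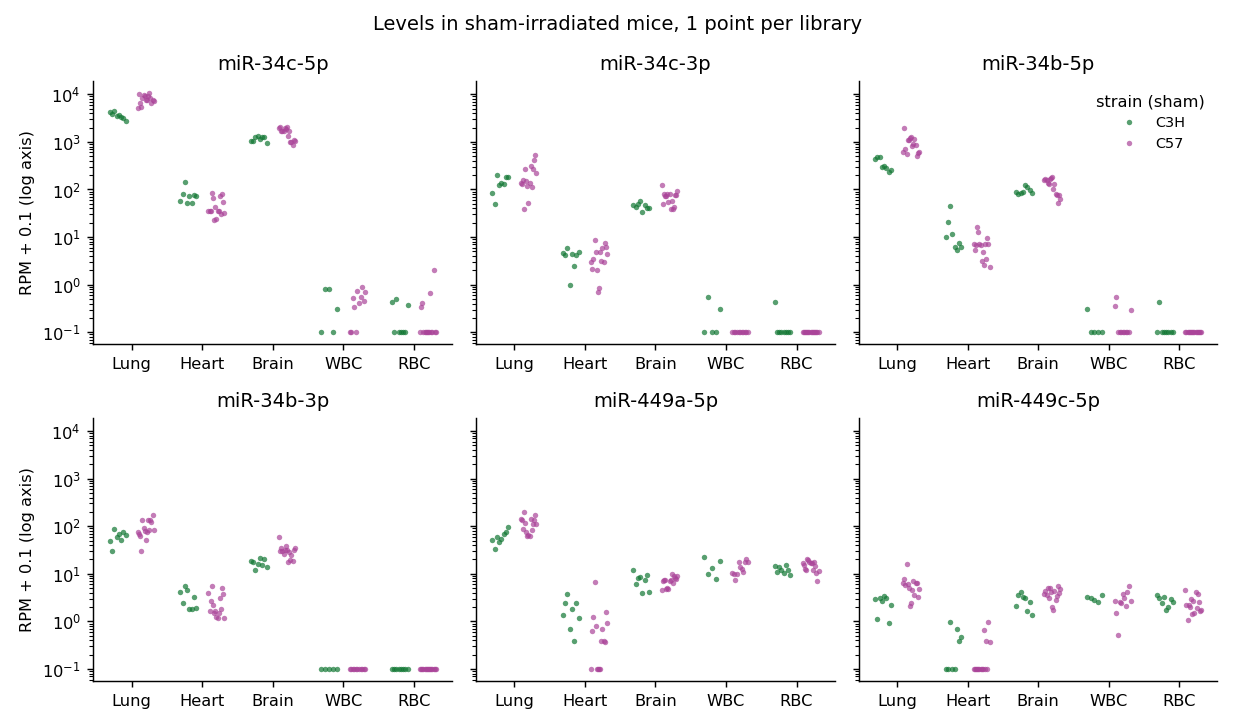
Level of each member in the sham libraries of 5 tissues, as RPM plus 0.1 on a log axis, with 1 point per library and the strain by color. Points on the lowest line are libraries with 0 counts. The 4 arms of miR-34b and miR-34c run lung, brain, heart and then blood, while mmu-miR-449a-5p and mmu-miR-449c-5p are present in blood and lowest in heart.

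The other arms of miR-34b and miR-34c had the same order of lung, brain, heart and blood at lower levels. In C57 lung mmu-miR-34b-5p reached 938 ± 390 RPM, mmu-miR-34c-3p 203 ± 135 RPM and mmu-miR-34b-3p 93.0 ± 38.3 RPM (n = 15). The matching C3H values were 348 ± 101, 135 ± 50.7 and 60.7 ± 17.5 RPM (n = 8). Within animals, each of the 4 arms was higher in lung than in brain in 8 of 8 C3H mice, and higher in brain than in heart in 8 of 8 (exact sign-flip permutation test, two-sided, adjusted p = 0.0116 over 40 tests in each case, with 0.00781 the smallest raw p that 8 mice allow). In C57 the lung exceeded the brain in 15 of 15 mice for 3 arms (adjusted p = 0.000244, exact permutation test) and in 13 of 15 for mmu-miR-34c-3p (adjusted p = 0.00244). The heart exceeded WBC in 11 of 11 C57 mice for all 4 arms (adjusted p = 0.00244, exact permutation test), and in 5 of 5 C3H mice, where the smallest raw p that an exact permutation test of 5 mice can give is 0.0625. In WBC and RBC no arm of miR-34b or miR-34c exceeded 7 counts in any library, so the order of the 2 blood fractions was not detectable at this depth.

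The miR-449 arms had a different order, with blood above heart. In C57 sham mice mmu-miR-449a-5p stood at 113 ± 41.4 RPM in lung, 14.6 ± 3.76 in RBC, 13.4 ± 4.22 in WBC (n = 11), 6.95 ± 1.67 in brain and 0.852 ± 1.70 in heart. The C3H values were 59.7 ± 18.5 in lung, 14.4 ± 6.29 in WBC (n = 5), 12.2 ± 2.17 in RBC, 7.39 ± 2.73 in brain and 1.66 ± 1.10 in heart. RBC and WBC did not differ beyond the spread between mice (adjusted p = 0.505 in C57 and 0.705 in C3H, exact permutation tests), whereas brain exceeded heart in every sham mouse of both strains (adjusted p = 0.000244 and 0.0116, exact permutation tests). Blood libraries held 17 to 136 counts of mmu-miR-449a-5p and 0 to 7 of mmu-miR-34c-5p.

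The rarer mmu-miR-449c-5p was the 1 member with no clear lung peak. Its sham means lay between 2.32 and 5.80 RPM in lung, brain, WBC and RBC of both strains, and at 0.260 (C3H) and 0.132 RPM (C57) in heart. Lung exceeded brain in 11 of 15 C57 mice (adjusted p = 0.0201, exact permutation test), while in C3H no pair of neighbours among WBC, brain, RBC and lung differed beyond the spread between mice (adjusted p from 0.505 to 0.922, exact permutation tests). Lung was above heart in 8 of 8 C3H mice. Of the passenger arms, mmu-miR-449a-3p was seen in 31 of the 35 lung libraries, at most 20 counts, and mmu-miR-449c-3p had 4 counts over all 35. The third name of the cluster, mmu-miR-449b, had 0 counts in all 167 libraries, which allows up to 1.67 RPM in the shallowest of them.

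The arms were unequal in every tissue that held them. In sham lung the 5p arm of miR-34c exceeded its 3p arm 28.8-fold in C3H and 47.6-fold in C57 (geometric means), and the 5p arm of miR-34b exceeded its 3p arm 5.76-fold and 10.2-fold. Sham heart gave 19.9-fold and 12.4-fold for miR-34c, and 3.60-fold and 2.63-fold for miR-34b. Sham brain gave 26.1-fold and 22.4-fold for miR-34c. Between the 2 hairpins, mmu-miR-34b-5p was 0.0932 (C3H) and 0.112 (C57) of mmu-miR-34c-5p in lung, 0.0808 and 0.0782 in brain, and 0.150 and 0.142 in heart. The ratio of mmu-miR-449c-5p to mmu-miR-449a-5p was 0.0397 and 0.0497 in lung, 0.369 and 0.540 in brain, 0.230 and 0.196 in WBC, and 0.219 and 0.159 in RBC. The 2 members of the miR-449 cluster were thus further apart in lung than in brain or blood, a difference between tissues that was not tested.

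Over the lung libraries, after subtraction of group means, like arms of the 2 miR-34 hairpins varied together more than the 2 arms of 1 hairpin did. In these 35 lung libraries the 5p arms of miR-34b and miR-34c had r = 0.72 and their 3p arms r = 0.87, while the 2 arms of miR-34c had r = -0.02 and those of miR-34b r = -0.28. In brain the 5p arms had r = 0.88 and the 2 arms of miR-34c r = 0.16, whereas the 3p arms had r = 0.49, no more than the 2 arms of miR-34b (r = 0.51). In heart all of these pairs lay between 0.43 and 0.69. The levels of mmu-miR-449a-5p and mmu-miR-449c-5p had r = 0.63 in lung and 0.67 in WBC, but 0.40 in RBC and 0.20 in brain. The points of each correlation share library, depth and scaling.

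The first comparison within tissues was irradiated against sham, fitted over all miRNAs of a tissue with limma voom after quantile normalization. To be called, a miRNA needed a Benjamini-Hochberg adjusted p below 0.05 together with a log2 difference of at least 1.17 in size. All 6 members passed the filter on low counts in lung and brain, 4 did in heart (the arms of miR-34b and miR-34c), and 2 in WBC and RBC (mmu-miR-449a-5p and mmu-miR-449c-5p). Fewer cells of a type and less RNA per cell cannot be told apart in such bulk samples.

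In the heart of C3H mice, all 4 arms of miR-34b and miR-34c were higher after irradiation. The fit called 4 of the 4 members tested, against 6.73% of the 312 miRNAs tested in that comparison, and the members' median log2 change was 2.32 where that of all miRNAs was -0.03. Sham hearts held 50.7 to 141 RPM of mmu-miR-34c-5p (median 72.3, n = 8) and irradiated hearts 158 to 627 RPM (median 392, n = 7). The groups did not overlap, and the log2 change was 2.43 ± 0.29 (SE; adjusted p = 5.55e-08). How many of all miRNAs had groups without overlap was not counted, here or in the other comparisons. The highest sham value, 141 RPM in replicate 3, and the lowest irradiated one, 158 RPM in the replicate 3 with little cardiac muscle signal, were the 2 closest libraries.

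The passenger arm mmu-miR-34c-3p ranged from 0.894 to 5.65 RPM in sham (median 4.21) and from 12.8 to 34.9 RPM in irradiated hearts (median 19.7), again without overlap. Its log2 change was 2.80 ± 0.42 (adjusted p = 4.03e-06). Sham libraries held only 3 to 20 counts of it, against 38 to 167 in the irradiated ones. For mmu-miR-34b-3p the sham range was 1.70 to 5.37 RPM and the irradiated range 6.28 to 15.8 RPM, with a log2 change of 2.21 ± 0.23 (adjusted p = 3.14e-09).

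The groups did overlap for mmu-miR-34b-5p. Sham hearts held 5.28 to 44.1 RPM of it (median 8.84) and irradiated hearts 4.88 to 72.2 RPM (median 42.8), and the log2 change was 1.89 ± 0.37 (adjusted p = 0.000292). The lowest irradiated value was replicate 3 and the highest sham value was sham replicate 3. Without irradiated replicate 3 the change of mmu-miR-34b-5p was 2.26 and that of mmu-miR-34c-5p 2.60. The 4 arms were called in each of the 15 fits that left out 1 C3H library. Within letter A (3 irradiated and 4 sham) mmu-miR-34b-5p changed by 0.88 (adjusted p = 0.288) and the other 3 arms by 1.94 to 2.87, all called. Within letter B (4 and 4) all 4 were called at 2.37 to 2.77. Over all miRNAs these fits called 38 of 329 within letter A and 11 of 304 within letter B.

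**Figure D2:**
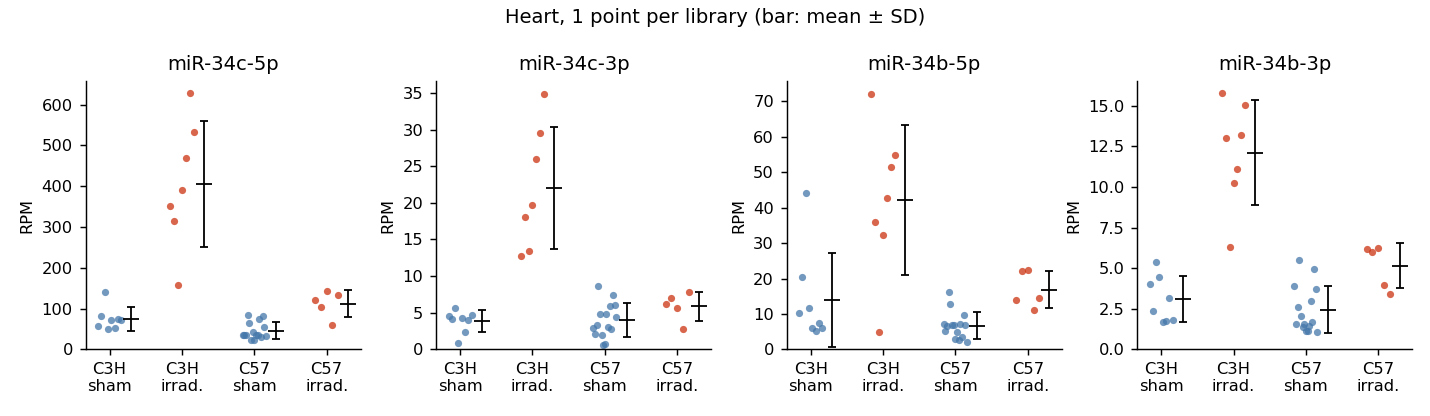
RPM of the 4 arms of miR-34b and miR-34c in each heart library (points), by strain and treatment, with the group mean ± SD as a bar. Irradiated C3H hearts lie above all sham C3H hearts for mmu-miR-34c-5p, mmu-miR-34c-3p and mmu-miR-34b-3p. Irradiated C57 hearts sit lower, from 59.1 to 143 RPM of mmu-miR-34c-5p.

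In C57 heart the same arms had positive estimates, and 1 of the 4 passed both criteria, where 0.962% of the 312 miRNAs did. The 5 irradiated hearts held 122, 104, 143, 59.1 and 132 RPM of mmu-miR-34c-5p, and 15 sham hearts held 22.9 to 85.5 RPM (median 36.0). Of the irradiated hearts, 4 were above every sham heart, and the log2 change was 1.25 ± 0.30 (adjusted p = 0.00734). Leaving out irradiated replicate 3 brought it to 1.15 (adjusted p = 0.0411), under the fold minimum. For mmu-miR-34b-3p (6.19, 5.96, 6.27, 3.98 and 3.41 RPM against a sham median of 1.70) the log2 change was 1.08 ± 0.24 (adjusted p = 0.00537), also under the fold minimum. It passed without irradiated replicate 4 (1.17) or 5 (1.20), or without sham replicate 13 (1.17).

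The remaining C57 arms did not pass. The log2 difference of mmu-miR-34b-5p was 1.28 ± 0.39 (adjusted p = 0.0537), with irradiated values of 13.9, 22.2, 22.4, 11.03 and 14.6 RPM against a sham median of 6.77 RPM. All 5 irradiated hearts were above that median, and the arm was called when sham replicate 4, 5, 11 or 13 was left out (1.30 to 1.37). The log2 difference of mmu-miR-34c-3p was 0.56 ± 0.45 (adjusted p = 0.617), and no irradiated heart was above all sham hearts. Among males alone (4 irradiated and 8 sham) the call on mmu-miR-34c-5p held at 1.48 (adjusted p = 0.0252) and mmu-miR-34b-3p was called at 1.37 (adjusted p = 0.0201). Males alone gave 1.18 (adjusted p = 0.0501) for mmu-miR-34b-5p and 1.02 (adjusted p = 0.161) for mmu-miR-34c-3p, above the 0.56 of both sexes together, in a fit that called 6 of 285 miRNAs. Within letter A or letter B alone no member was called in C57 heart, with mmu-miR-34c-5p at 1.31 and 1.23. These fits called few miRNAs of any kind, 4 of 329 within letter A and 3 of 304 within letter B.

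The strain difference in these changes was tested as an interaction in the same fit. None of the 4 members was called in heart, and 0% of the 312 miRNAs were. At an unadjusted p under 0.05 there were 3 of the 4 members and 16.3% of all miRNAs. The change in C3H minus that in C57 was 2.246 ± 0.61 for mmu-miR-34c-3p (adjusted p = 0.0624), 1.13 ± 0.33 for mmu-miR-34b-3p (0.0714), 1.17 ± 0.41 for mmu-miR-34c-5p (0.178) and 0.61 ± 0.54 for mmu-miR-34b-5p (0.495). Here female C3H mice are set against irradiated C57 mice that were mostly male. With sex as a covariate 0 of the 312 miRNAs were called in this interaction, and so none of the 4 members. The sex term rests on C57 mice alone, since all C3H mice were female. DESeq2 called 2 of the 4 (mmu-miR-34c-3p and mmu-miR-34c-5p) and edgeR called 0, so that a difference between the strains depended on the test. Over all 312 miRNAs DESeq2 called 2 and edgeR 0. Without C3H irradiated replicate 3 none of the 4 was called (adjusted p from 0.0672 to 0.275). The call on mmu-miR-34c-3p was also made without C57 sham replicate 2, 7 or 8, C3H irradiated replicate 1 or C3H sham replicate 5 (2.29 to 2.44).

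The ratios between arms in heart did not separate irradiated from sham mice. The log2 ratio of the 5p to the 3p arm of miR-34c was 4.17 ± 0.39 (SD) in irradiated and 4.31 ± 0.61 in sham C3H hearts (exact permutation test, two-sided, adjusted p = 0.823 over 20 tests). In C57 it was 4.23 ± 0.29 against 3.63 ± 0.75 (adjusted p = 0.380, exact permutation test). The ratio of mmu-miR-34b-5p to mmu-miR-34c-5p in C3H was 0.0901 after irradiation and 0.150 in sham (adjusted p = 0.380, exact permutation test).

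No epithelial miRNA was called beside the miR-34b/c arms in heart. Of a list of 8 (the miR-200 family, miR-375, miR-203 and miR-205), 7 were tested in heart and 0 were called in either strain, with median log2 changes of -0.67 in C3H and -0.53 in C57. The list's summed level was 325 to 1380 in sham and 249 to 753 RPM in irradiated C3H hearts, and 169 to 483 and 234 to 334 RPM in C57, against 9873 to 38838 RPM in lung. No epithelial miRNA was at 0 throughout a heart group. Among 20 non-members with the largest sham excess in lung over heart, a list chosen with the same sham heart values that are the baseline of the change, 10 were tested in heart, and 2 were called in C3H, mmu-miR-146b-5p at 1.24 ± 0.22 (adjusted p = 7.47e-05) and mmu-miR-182-5p at 1.44 ± 0.50 (adjusted p = 0.0436). The median of the 10 was -0.46 in C3H and -0.06 in C57. Of the other marker lists in C3H heart, 1 of 4 erythrocyte and 1 of 5 leukocyte miRNAs were called, both lower, and 0 of 5 cardiac muscle miRNAs. Without irradiated replicate 3 the erythrocyte call was lost. In C57 heart 0 were called in any of these lists, but all 4 neuronal miRNAs had positive log2 differences (median 0.65, against 0 over all miRNAs tested). Their summed level was 509 to 926 RPM in irradiated and 459 to 808 RPM in sham C57 hearts, and their part in the C57 heart values was not tested.

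Over the 35 heart libraries, after subtraction of group means, the miRNAs most like mmu-miR-34c-5p among 308 non-members were mmu-miR-200a-3p (r = 0.65), mmu-miR-21a-5p (0.61), mmu-miR-200b-3p (0.59), mmu-miR-146b-5p (0.56) and mmu-miR-205-5p (0.55). The 7 epithelial miRNAs tested ranged from r = -0.05 (mmu-miR-203-3p) to 0.65, and without C3H irradiated replicate 3 and C3H sham replicate 3 from -0.08 to 0.57. Within the irradiated groups single hearts went both ways. Irradiated C3H replicate 3 had both the least mmu-miR-34c-5p (158 RPM) and the lowest epithelial sum (249 RPM) of its group. In C57, irradiated replicate 3 had the most mmu-miR-34c-5p (143 RPM) and a sum of 280 RPM, below that of replicate 4 alone. The C3H hearts with the most mmu-miR-34c-5p (627 and 533 RPM) had epithelial sums of 379 and 404 RPM, below those of 3 of the other hearts of their group, and the C57 heart with the least (59.1 RPM) had the highest sum of its group (334 RPM). Sham C3H replicate 3 had both the highest epithelial sum of any heart (1380 RPM) and the highest mmu-miR-34c-5p of any sham heart (141 RPM). Without this library mmu-miR-34c-5p changed by 2.52 and mmu-miR-34b-5p by 2.11 in C3H heart. Apart from irradiated and sham replicates 3, the C3H hearts had epithelial sums of 379 to 753 RPM after irradiation and 325 to 696 RPM in sham, and they held 313 to 627 RPM and 50.7 to 80.7 RPM of mmu-miR-34c-5p. The part of epithelial content in the heart values was not tested beyond these values. Over the means of the 20 groups, the most similar among 395 miRNAs were mmu-miR-200a-3p (r = 0.98), mmu-miR-582-3p (0.97), mmu-miR-187-3p, mmu-miR-30c-2-3p and mmu-miR-23b-3p (0.96 each), and these points share tissues and mice.

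**Figure D3:**
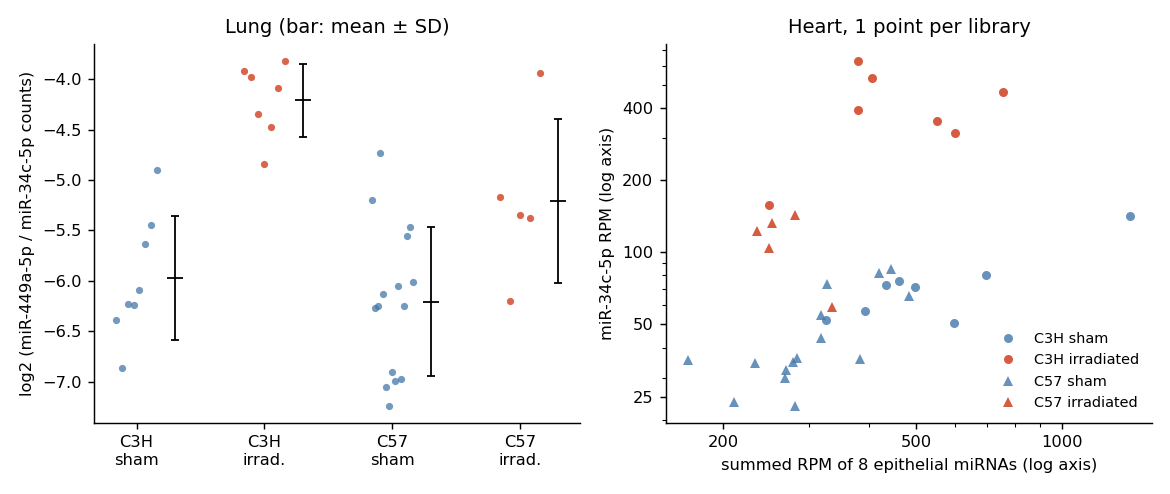
Left, log2 ratio of mmu-miR-449a-5p to mmu-miR-34c-5p counts in each lung library, by strain and treatment, with mean ± SD as a bar. Right, mmu-miR-34c-5p against the summed RPM of 8 epithelial miRNAs in each heart library, both on log axes. All 7 irradiated C3H lungs lie above all 8 sham C3H lungs. Irradiated C3H hearts hold 158 to 627 RPM of mmu-miR-34c-5p at epithelial sums of 249 to 753 RPM. Sham C3H hearts hold 50.7 to 141 RPM at sums of 325 to 1380 RPM.

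In lung, the miR-449 arms rose in C3H mice while the arms of miR-34b and miR-34c did not pass the test in either strain. The C3H fit called 2 of 6 members, against 9.71% of the 350 miRNAs tested. Sham C3H lungs held 33.7 to 93.8 RPM of mmu-miR-449a-5p (median 55.7) and irradiated lungs 125 to 303 RPM (median 212), and the groups did not overlap. The log2 change was 1.51 ± 0.26 (adjusted p = 3.06e-05). For mmu-miR-449c-5p sham lungs ranged from 0.812 to 3.32 RPM and irradiated lungs from 3.74 to 16.04 RPM, again without overlap, on 3 to 13 against 13 to 60 counts. Its log2 change was also 1.51 ± 0.36 (adjusted p = 0.00161). Lung also held less cardiac muscle miRNA after irradiation in C3H, with 3 of 5 called lower and sums of 2571 to 5231 RPM against 4769 to 7530 RPM in sham. The part of this in the lung values was not tested. The call on both miR-449 arms held within letter A (1.84 and 1.57) and within letter B (1.21 and 1.42). Over all miRNAs these fits called 35 of 356 within letter A and 28 of 353 within letter B.

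The 4 miR-34b/c arms in C3H lung had log2 differences of -0.03 ± 0.16 (mmu-miR-34c-5p), 0.30 ± 0.36 (mmu-miR-34c-3p), -0.25 ± 0.27 (mmu-miR-34b-5p) and -0.40 ± 0.24 (mmu-miR-34b-3p), with adjusted p from 0.213 to 0.903. The 3 negative values became 0.03 to 0.07 with scaling by library size alone. Irradiated lungs held 2289 to 5159 RPM of mmu-miR-34c-5p (median 4020) and sham lungs 2814 to 4421 RPM (median 3545). The 2 groups thus overlapped over most of their range.

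**Figure D4:**
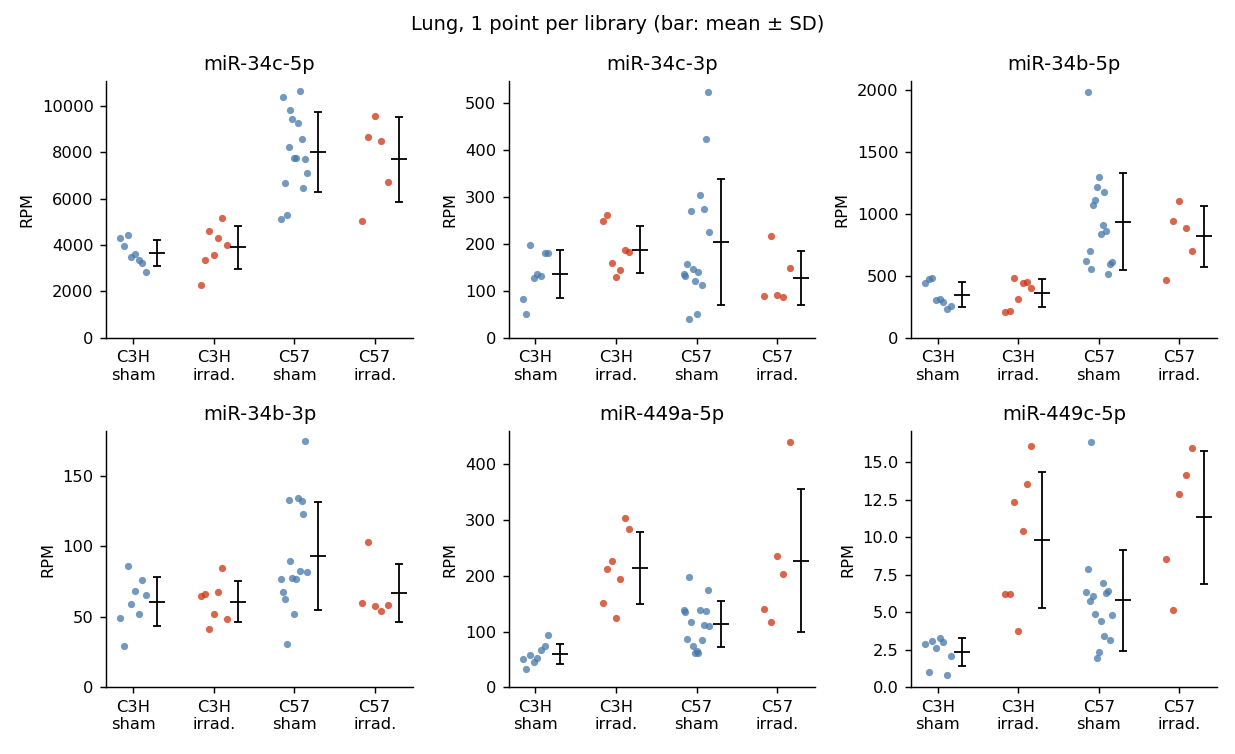
RPM of the 6 members in each lung library (points), by strain and treatment, with the group mean ± SD as a bar. In C3H the irradiated lungs lie above all sham lungs for mmu-miR-449a-5p and mmu-miR-449c-5p, and the groups overlap for the 4 arms of miR-34b and miR-34c. The C57 lungs hold about the same mmu-miR-34c-5p with or without irradiation, with medians of 8463 and 7740 RPM.

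In C57 lung none of the 6 members was called by limma voom, edgeR or DESeq2, where limma voom called 6.00% of the 350 miRNAs. At an unadjusted p under 0.05 there were 2 of 6, the miR-449 arms, where 33.4% of all miRNAs were. Irradiated C57 lungs held 140, 118, 235, 204 and 439 RPM of mmu-miR-449a-5p, and sham lungs 60.8 to 198 RPM (median 113). All 5 were above the sham median and 3 were above every sham lung. The log2 difference was 0.76 ± 0.25 (adjusted p = 0.0326), under the fold minimum, and that of mmu-miR-449c-5p was 0.81 ± 0.29 (adjusted p = 0.0545). The 2 lowest irradiated values, 140 and 118 RPM, were the 2 mice of letter A. Within letter A (2 irradiated and 8 sham) mmu-miR-449a-5p differed by -0.04 and mmu-miR-449c-5p by -0.14, and within letter B (3 and 7) they rose by 1.36 (adjusted p = 0.00302) and 1.57 (adjusted p = 0.00590). The difference therefore did not hold within both letters. Marker miRNAs differed in C57 lung as well. All 4 neuronal miRNAs had positive log2 differences (median 1.32, against -0.05 over all miRNAs), with mmu-miR-9-5p called, and sums of 128 to 616 RPM against 61.0 to 208 RPM in sham. Of 5 cardiac muscle miRNAs 1 was called lower, mmu-miR-208b-3p, and of the 20 non-members chosen for their sham excess in lung 3 were called lower (mmu-miR-1298-5p, mmu-miR-1298-3p and mmu-miR-1264-3p). Calls over all miRNAs were 6 of 356 within letter A and 32 of 353 within letter B. The part of these in the lung values was not tested. The miR-34b/c arms in C57 lung lay between -0.57 and -0.09 on the log2 scale, with adjusted p from 0.173 to 0.721.

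The interaction between strain and irradiation in lung was called for 0 of 6 members by limma voom, edgeR and DESeq2, and for 0.286% of the 350 miRNAs by limma voom. It was 0.75 ± 0.36 for mmu-miR-449a-5p (unadjusted p = 0.0441, adjusted p = 0.353), the 1 member with an unadjusted p under 0.05, where 13.4% of all miRNAs had one. A difference in the response of mmu-miR-449a-5p between the strains was thus not shown.

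A ratio within a library does not depend on scaling, and here it gave the same picture as the levels. The ratio of mmu-miR-449a-5p to mmu-miR-34c-5p in C3H lung was 0.0541 after irradiation and 0.0159 in sham. The log2 ratio rose by 1.77 and was above all sham lungs in 7 of 7 irradiated lungs (exact permutation test, two-sided, adjusted p = 0.00622 over 20 tests). In C57 lung the log2 ratio differed by 1.00 (raw p = 0.0196, adjusted p = 0.131, exact permutation test). The ratio of mmu-miR-449c-5p to mmu-miR-449a-5p in lung was 0.0437 and 0.0397 in irradiated and sham C3H mice (adjusted p = 0.823, exact permutation test), a log2 difference of 0.14 in a ratio that varied between lungs by an SD of 0.38 and 0.82. The ratio of mmu-miR-34b-3p to mmu-miR-34c-3p in C3H lung differed by -0.51 on the log2 scale (raw p = 0.0177, adjusted p = 0.131, exact permutation test), with 4 of 7 irradiated lungs below all sham lungs. No other ratio passed in lung.

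The responses of lung and heart were then compared directly in a joint fit of both tissues, with 374 miRNAs tested. In sham mice the 4 arms of miR-34b and miR-34c were higher in lung. The fit called 4 of these 4 in each strain, where 46.5% of all miRNAs were called in C3H and 43.3% in C57. The log2 differences ran from 3.94 (mmu-miR-34b-3p) to 5.34 (mmu-miR-34c-5p) in C3H and from 4.55 to 6.98 for the same 2 members in C57. The miR-449 arms entered this fit through lung alone, with at most 21 counts of mmu-miR-449a-5p and 3 of mmu-miR-449c-5p in a heart library, so they had to differ and are not counted here.

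The irradiation change in lung minus that in heart, from the same fit and the same sham mice, was negative for the miR-34b/c arms. In C3H 4 of these 4 arms were called, where 5.35% of all miRNAs were. The values were -2.60 ± 0.34 (mmu-miR-34c-5p, adjusted p = 1.24e-08), -2.51 ± 0.53 (mmu-miR-34c-3p, 0.000612), -2.13 ± 0.47 (mmu-miR-34b-5p, 0.00106) and -2.58 ± 0.34 (mmu-miR-34b-3p, 1.81e-08). In C57 3 of the 4 were called, where 3.21% were. These were mmu-miR-34c-5p at -1.43 ± 0.34 (adjusted p = 0.00653), mmu-miR-34b-5p at -1.58 ± 0.47 (0.0263) and mmu-miR-34b-3p at -1.47 ± 0.35 (0.00653), while mmu-miR-34c-3p had -1.06 ± 0.55 (0.322). Without the mouse of heart C3H irradiated replicate 3, the C3H values ran from -2.86 to -2.47 and all 4 arms were called. Counts of the miR-449 arms in heart were too low for a change there to be read.

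Lung and heart came from the same mice, and with the animal as a block the call on mmu-miR-34b-5p in C57 was lost (-1.54, adjusted p = 0.0546). The C57 call on mmu-miR-34b-5p was also lost without irradiated mouse 1, 2 or 5 (adjusted p from 0.0827 to 0.116).

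**Figure D5:**
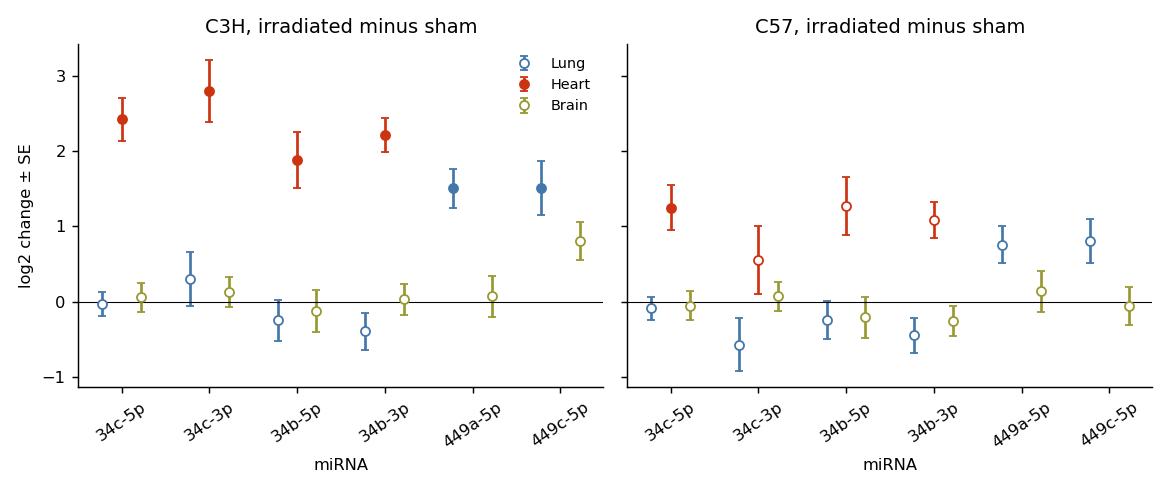
Log2 change, irradiated minus sham, of each member in lung, heart and brain, with its SE as a bar, for C3H (left) and C57 (right). Filled points passed both criteria, and members not tested in heart have no heart point. In C3H the heart values of the miR-34b/c arms run from 1.89 to 2.80 and their lung values from -0.40 to 0.30.

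In brain, outside the irradiated field, no member was called in either strain by limma voom, edgeR or DESeq2, and neither were any of the 433 miRNAs by limma voom (0%). At an unadjusted p under 0.05 there was 1 of 6 members in C3H and 0 of 6 in C57, where 2.08% and 12.2% of all miRNAs were. The 1 was mmu-miR-449c-5p, with a log2 difference of 0.81 ± 0.25 (adjusted p = 0.818), 7 of 7 irradiated brains above the sham median and 5 above every sham brain. The other members differed by -0.26 to 0.14 over both strains. In WBC and RBC the 2 miR-449 arms differed by 0.03 to 0.45, and limma voom, edgeR and DESeq2 called 0 of 2 in each strain, with 0 at an unadjusted p under 0.05. The limma voom fits called 0% of 291 miRNAs in WBC and 0% of 229 in RBC.

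Among sham females (7 C57 and 8 C3H) all 6 members were higher in C57 lung, by 0.97 to 1.23 on the log2 scale, each with an adjusted p of at most 0.0254, and 15.1% of the miRNAs tested had an adjusted p under 0.05. The fold minimum was passed by 1 of 6, mmu-miR-449c-5p (1.23 ± 0.37, adjusted p = 0.0202), where 5.71% of the 350 miRNAs were called, and edgeR and voom with TMM did not make this call. That of mmu-miR-34c-5p was 1.03 ± 0.16 (adjusted p = 1.53e-05). In heart the same comparison called 0 of 4 members by limma voom, edgeR and DESeq2, with 1 at an unadjusted p under 0.05 (48.7% of all miRNAs), where limma voom called 11.5% of 312 miRNAs. The values there ran from -0.69 (mmu-miR-34b-5p) to 1.02 (mmu-miR-34c-3p, adjusted p = 0.0455).

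The sexes were compared in sham C57 mice. In heart 1 of 4 members was called, where 8.33% of the 312 miRNAs were. It was mmu-miR-34c-3p, with a log2 difference, male minus female, of -1.32 ± 0.43 (adjusted p = 0.0169), a call that edgeR and DESeq2 did not make. The other heart differences were -0.56 (mmu-miR-34c-5p), -0.48 (mmu-miR-34b-3p) and 0.29 (mmu-miR-34b-5p), and none of these passed. Male hearts held 1.15 to 5.48 RPM of mmu-miR-34b-3p and female hearts 1.10 to 4.94 RPM. In lung 0 of 6 were called by the 3 tools, where limma voom called 2.29% of 350, and the 2 of 6 members with an unadjusted p under 0.05 (30.3% of all miRNAs) were mmu-miR-34c-3p (-1.05 ± 0.31, adjusted p = 0.0376) and mmu-miR-34b-3p (-0.73 ± 0.20, adjusted p = 0.0363). The 5p arms differed by -0.15 (mmu-miR-34c-5p) and 0.37 (mmu-miR-34b-5p) in lung. The log2 ratio of the 5p to the 3p arm of miR-34c in sham C57 lung was 6.06 ± 0.83 (SD, n = 8) in males and 5.01 ± 0.96 (n = 7) in females, with overlapping ranges of 4.93 to 7.23 and 3.88 to 6.57. Since 4 of the 5 irradiated C57 mice were male, the values for males alone stand beside the C57 heart results.

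The seed relative mmu-miR-34a-5p rose in both tissues of C3H mice. Irradiated C3H hearts held 414 to 702 RPM and sham hearts 189 to 261 RPM, without overlap, and the log2 change was 1.27 ± 0.16, called. In lung the irradiated range was 1191 to 1892 RPM and the sham range 378 to 594 RPM, also without overlap, and the log2 change was 1.57 ± 0.16, called. In C57 lung it was 1.17 ± 0.15 (adjusted p = 4.14e-07), just under the fold minimum. In C57 heart the log2 difference was 0.41 ± 0.16 (adjusted p = 0.153). Of the list of 8 p53-responsive miRNAs that holds it, 7 were tested in heart, and mmu-miR-34a-5p was the 1 called in C3H and 0 were called in C57. The list's median log2 change was -0.42 in C3H heart and 0.01 in C57 heart, beside medians of -0.03 and 0 over all miRNAs, and its next smallest adjusted p in C3H were those of mmu-miR-194-5p at -0.62 ± 0.17 (0.0117), mmu-miR-145a-5p at -0.89 ± 0.28 (0.0250) and mmu-miR-107-3p at -0.49 ± 0.19 (0.0705), none of them called. In lung, mmu-miR-34a-5p and the miR-449 arms rose in C3H where the miR-34b/c arms did not pass the test, while in heart mmu-miR-34a-5p rose together with the 4 miR-34b/c arms.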

How the data were processed

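Small RNA libraries (QIAseq miRNA kit) were sequenced by the authors, whose BaseSpace workflow matched trimmed reads to mouse miRNAs (build mm10, per the submitters' processing notes). The deposited values are whole read counts per mature miRNA and library, in 1 table per tissue. Use of molecular identifiers is not given in the sources used here, and intervals or floors cover counting error only. Counts were divided by the library total for RPM. Groups came from the sample labels. For tests, counts were filtered (filterByExpr, count minimum 10, total minimum 15) and fitted with limma 3.58.1 voom with quantile normalization (R 4.3.3, offset 0.5) over all groups of a tissue, with Benjamini-Hochberg adjustment over all miRNAs tested. edgeR 4.0.16 and DESeq2 1.42.0 were alternatives, beside other scalings, filters, covariates, subsets and 100 fits that each left out 1 library or mouse, those that left a library standing apart out of the joint lung and heart fit or the sham comparisons being added after seeing the data, as were the correlations without 2 heart libraries. Ratios (0.5 added to counts) and tissue orders used exact permutation tests. The scripts were tested on simulated counts. P-values measure the spread between mice within a group.

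The members, marker lists and comparisons were chosen with earlier results of these data known. Genes named beside the members are miR-34a, the other arms, up to 4 of a list by smallest adjusted p in C3H heart, and the 5 most like mmu-miR-34c-5p in heart and over group means. Named after their values were seen were mmu-miR-203-3p, mmu-miR-208b-3p, mmu-miR-1298-5p, mmu-miR-1298-3p and mmu-miR-1264-3p. Over 5 tissues, 20 groups and 35 mice, no column was left without a sample. Pairing of lung and heart rests on the animal in the titles: deviations of the 2 tissues of an animal had a median r of 0.07 (-0.44 to 0.42, with 17 of 35 over 0.1). The epithelial list was mmu-miR-200a-3p, mmu-miR-200b-3p, mmu-miR-200c-3p, mmu-miR-141-3p, mmu-miR-429-3p, mmu-miR-375-3p, mmu-miR-203-3p and mmu-miR-205-5p.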

Additional observations from a re-analysis of the deposited data

Results flagged for a closer look

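Of 60 sets looked at, each the 4 to 10 libraries of 1 group for 1 member, 7 held a library that stood apart from the others by Dixon's test. Chance alone gives about 1 in 20 for a single set. Sets of the same group share their libraries, so the 60 are not independent. In sham C3H heart, replicate 3 was high for mmu-miR-34c-5p (141 RPM) and mmu-miR-34b-5p (44.1 RPM). In C57 lung, irradiated replicate 2 was high for mmu-miR-34b-3p (103 RPM). In brain, irradiated C3H replicate 2 was low for mmu-miR-34b-5p (42.0 RPM) and high for mmu-miR-449a-5p (14.5 RPM), in a library that also had the lowest correlation with its group in brain (r = 0.945), and irradiated C57 replicate 5, the 1 female of its group, was low for mmu-miR-34b-5p (32.0 RPM). Brains of sham C57 females held 51.0 to 132 RPM of mmu-miR-34b-5p and those of sham C57 males 128 to 184 RPM. In WBC, irradiated C57 replicate 4 was high for mmu-miR-449a-5p (20.5 RPM).

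The irradiation change differed between lung and heart by a test of the difference itself (limma voom) for 4 members in C3H and 3 in C57, where 5.35% and 3.21% of the 374 miRNAs were called. The lung change minus the heart change in C3H was -2.60 for mmu-miR-34c-5p, -2.51 for mmu-miR-34c-3p, -2.13 for mmu-miR-34b-5p and -2.58 for mmu-miR-34b-3p. In C57 it was -1.43 for mmu-miR-34c-5p, -1.58 for mmu-miR-34b-5p and -1.47 for mmu-miR-34b-3p. With the animal as a block, mmu-miR-34b-5p in C57 was no longer called (-1.54, adjusted p = 0.0546), which left 2. Each rests on the same sham mice as the changes within lung and within heart.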

How the results depend on the processing

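No member's difference changed sign between the reported fit and another setting where either passed the criteria; the miR-449 arms in C57 lung passed within letter B but were -0.04 and -0.14 within letter A. Of 854 recomputed log2 differences of single members under other settings, 12 lost and 25 gained a call and 61 below the criteria in both fits changed sign; of 880 with 1 library or mouse left out, 4 lost and 12 gained a call. In C57 heart, where 1 member was called, edgeR, DESeq2, voom with TMM, voom with library size alone, males alone and no fold minimum each called 2, letter A or letter B alone called 0, and leaving out 1 library gave 0 to 3. The heart interaction (0 called) went to 2 with DESeq2 and to between 0 and 1 with 1 library left out. The stricter filter (10 counts in every library) left 1 member called in C3H heart, in C3H lung and in each lung and heart comparison, since fewer members were tested. In C57 lung (0 called) letter B alone called 2 (and 32 of 353 miRNAs, against 6 of 356 in letter A) and no fold minimum 1. Among sham females, lung went from 1 to 0 with edgeR and with voom with TMM and to 6 with no fold minimum, and heart from 0 to 1 with no fold minimum. The sex comparison, whose alternatives were added after the data were seen, went in lung from 0 to 2 with no fold minimum, and in heart from 1 to 0 with edgeR, DESeq2, library size alone and the stricter filter and to 2 with the looser one. The cause of the other changes was not tested. With the animal as a replicate block, 5 members in place of 4 were called for the change in C3H lung minus heart (mmu-miR-449c-5p at 2.03 was gained, a member tested only through its lung counts) and 2 in place of 3 in C57 (mmu-miR-34b-5p at -1.54 was lost). Scaling by library size alone moved the median of all miRNAs in C3H lung from -0.08 to 0.27 and split its calls 41 higher and 3 lower in place of 22 and 12, and in C57 lung 20 and 2 in place of 13 and 8. Low counts limit the miR-449 arms in heart and the 3p arms in sham heart.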
